A study of Drosophila melanogaster with 6 samples.

Results

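The Rab genes of *Drosophila melanogaster* encode small GTPases that direct membrane traffic, and their RNA was followed here in nuclei of the larval eye disc. Members were taken by name, as every row of the count table whose symbol is Rab or RabX followed by a number and optional letters. This gave 33 of 17433 genes. All 33 were matched by symbol to the reference annotation, with 13 on chromosome X and 5 on each of the arms 2L, 2R, 3L and 3R.

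Total RNA was sequenced from 3 *GMR>Rh-1G69D* samples and 3 WT samples of eye imaginal disc nuclei, from larvae late in the third instar. *GMR>Rh-1G69D* larvae carried GMR-GAL4, uas-Rh-1G69D and uas-EGFP::Msp300-KASH, so that the GMR driver expressed a Rhodopsin-1 mutant that misfolds in the endoplasmic reticulum (ER). WT larvae carried GMR-GAL4 and uas-EGFP::Msp300-KASH alone. They therefore shared the driver and the tag with the mutant larvae, and they were not unmodified flies. The tag places EGFP on the nuclear envelope, and tagged nuclei were pulled down with antibodies against EGFP. GMR is active behind the morphogenetic furrow, where photoreceptors and other retinal cells differentiate, so the pull-down was aimed at a mixture of those cells. Markers of other cells and tissues were also counted in the libraries, and their levels are given below. Each sample was a separate pool of larvae.

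Rab proteins switch between a GDP-bound form in the cytosol and a GTP-bound form on a membrane. Exchange factors load GTP, GTPase-activating proteins of the TBC family end the active state, and effectors such as tethers and motors read it. A Rab carries a lipid that is added with the help of an escort protein, and GDI takes the inactive Rab off the membrane. In fly photoreceptors Rab1, Rab6 and Rab11 serve successive steps that bring Rhodopsin-1 out of the ER, through the Golgi and to the light-sensing membrane. Rab32, known in flies as lightoid, serves the lysosome-related granules that hold eye pigment.

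Counts on genes ranged from 21773452 to 25320418 in *GMR>Rh-1G69D* libraries and 22169330 to 30884519 in WT libraries, of which 45657 to 58111 fell on Rab genes in *GMR>Rh-1G69D* libraries and 39190 to 67786 in WT libraries. *ninaE*, which encodes Rhodopsin-1 and is the gene expressed by the transgene, had 146, 175 and 220 CPM in *GMR>Rh-1G69D* libraries, against 3.21, 36.9 and 2.22 CPM in WT libraries. CPM gives the count of a gene relative to the size of its library after normalization. WT replicate 3 was the WT library closest to the *GMR>Rh-1G69D* libraries, and without it 10.7% of genes were called higher and 9.82% lower, 20.5% in all. With all libraries kept, as in the marker counts that follow, 1.24% of all genes tested were called higher and 3.72% lower. Of 10 markers of cells behind the furrow, 5 were lower in *GMR>Rh-1G69D* nuclei and 0 higher (summed level 4468 to 7049 CPM in *GMR>Rh-1G69D*, against 6619 to 9397 CPM in WT libraries). Of this sum *pros*, not called, held 2919, 5317 and 3550 CPM in *GMR>Rh-1G69D* libraries and 5687, 5974 and 4508 CPM in WT libraries. In *GMR>Rh-1G69D* nuclei 4 of 5 muscle markers were higher (440 to 830 CPM in *GMR>Rh-1G69D*, against 195 to 304 CPM in WT libraries), as was 1 of 6 hemocyte markers (244 to 280 CPM in *GMR>Rh-1G69D*, against 130 to 142 CPM in WT libraries). Lower were 1 of 6 salivary gland markers (2.36 to 98.3 CPM in *GMR>Rh-1G69D*, against 27.5 to 1111 CPM in WT libraries) and 1 of 7 markers of the antennal and anterior disc (1695 to 2014 CPM in *GMR>Rh-1G69D*, against 1924 to 4080 CPM in WT libraries). None of 5 retinal glia markers (299 to 421 CPM in *GMR>Rh-1G69D*, against 275 to 354 CPM in WT libraries), 6 fat body markers (11.8 to 59.8 CPM in *GMR>Rh-1G69D*, against 33.6 to 857 CPM in WT libraries), 3 tested male germ line markers (4.86 to 7.55 CPM in *GMR>Rh-1G69D*, against 1.48 to 8.35 CPM in WT libraries) and 3 genes of male dosage compensation (2897 to 3211 CPM in *GMR>Rh-1G69D*, against 3279 to 5393 CPM in WT libraries) was called. The upper end of the fat body sum came from WT replicate 3 alone, at 857 CPM, against 33.6 and 40.7 CPM in WT replicates 1 and 2. The salivary gland sum was also highest there, at 1111 CPM, against 384 and 27.5 CPM in WT replicates 1 and 2. The antennal and anterior sum was highest in WT replicate 1, at 4080 CPM, against 2331 and 1924 CPM in WT replicates 2 and 3. Of the 4080 CPM in WT replicate 1, *hth*, not called, held 3109 CPM. No marker was at 0 in all libraries. The part of these shifts in the Rab results was not tested.

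Rab genes of the ER, the Golgi and the endosomes were the most abundant. Levels of different genes were compared in FPKM, which divides the count of a gene by its length and by the total of its library. *Rab1* averaged 127 ± 18.04 FPKM in *GMR>Rh-1G69D* nuclei and 89.5 ± 13.9 FPKM in WT nuclei (SD, n = 3 each), and its mean over all libraries ranked 426 among the 17433 genes. *Rab11*, which serves recycling endosomes and transport from the Golgi, averaged 118 ± 15.96 FPKM in *GMR>Rh-1G69D* nuclei and 97.7 ± 30.5 FPKM in WT nuclei. The means of *Rab1* and *Rab11* over all libraries were both 108 FPKM and did not differ beyond their spread.

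*Rab5*, the Rab of early endosomes, followed at 82.9 ± 14.6 FPKM in *GMR>Rh-1G69D* nuclei and 77.4 ± 6.02 FPKM in WT nuclei. *Rab6*, a Golgi Rab, averaged 87.2 ± 8.71 FPKM in *GMR>Rh-1G69D* nuclei and 64.1 ± 12.8 FPKM in WT nuclei. *Rab2*, which acts at the Golgi and in lysosome fusion, averaged 71.8 ± 8.53 FPKM in *GMR>Rh-1G69D* nuclei and 65.5 ± 5.35 FPKM in WT nuclei. The overlap of these ranges means that *Rab5*, *Rab6* and *Rab2* could not be ordered among themselves. In the means over all libraries *Rab7* (63.2 FPKM), *Rab8* (55.9 FPKM), *Rab4* (54.5 FPKM) and *Rab10* (52.9 FPKM) came next.

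The low end of the order included *Rab27*, *Rab9* and *Rab9*-like copies. Both genotypes averaged at least 10 FPKM for 20 of the 33 genes, and both averaged under 1 FPKM for 4. *Rab32* had a mean over all libraries of 4.66 FPKM, *Rab9* of 2.54 FPKM and *Rab27* of 2.04 FPKM. *Rab9D* (0.47 FPKM), *Rab9Db* (0.06 FPKM), *RabX2* (0.03 FPKM) and *RabX5* (0.03 FPKM) were the lowest 4. The median Rab gene stood at 22.6, 25.4 and 27.8 FPKM in *GMR>Rh-1G69D* libraries and 14.1, 16.02 and 20.6 FPKM in WT libraries. That gene was *Rab18* in every library except WT replicate 1, where it was *Rab23*. Over all tested genes the median was 8.99, 9.02 and 8.55 FPKM in *GMR>Rh-1G69D* libraries, against 6.99, 8.84 and 8.16 FPKM in WT libraries. Tested on the counts, the median log2 fold change of the Rab genes was 0.11.

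**Figure D1:**
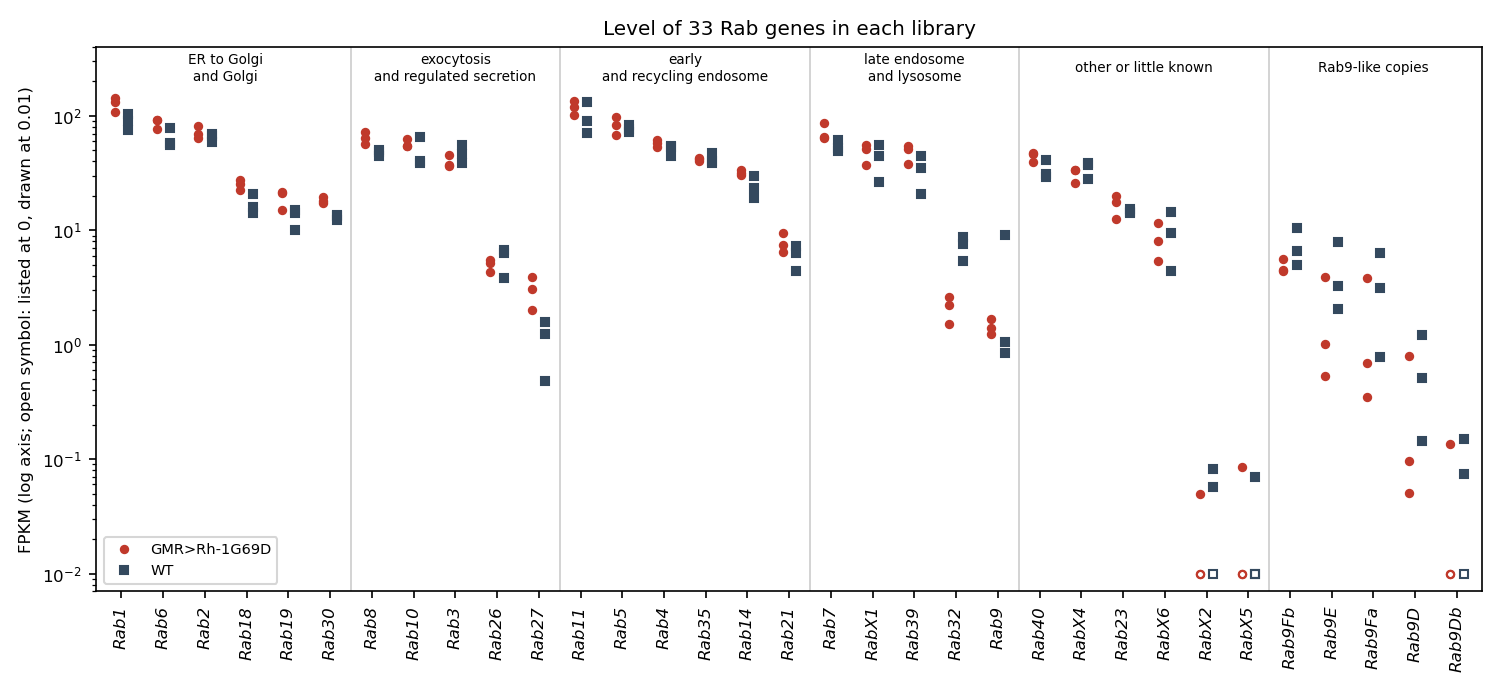
Level of the 33 Rab genes in FPKM (vertical log axis), grouped by the transport step they serve, with *GMR>Rh-1G69D* libraries as circles left of WT libraries as squares. Levels run between the *Rab1* and *Rab11* means of 108 FPKM and genes listed at 0 in some libraries (open symbols drawn at 0.01), and *Rab32* is the gene of the late endosome and lysosome group whose genotypes stand farthest apart with no overlap.

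The genotype difference was tested on the counts with edgeR's quasi-likelihood test, and the Benjamini-Hochberg adjustment of the p-values ran over all 11818 genes with enough counts. Of the 33 Rab genes, 30 could be tested. *Rab32* was lower in *GMR>Rh-1G69D* nuclei, and it was the 1 Rab gene with an adjusted p under 0.05. None was called higher, by edgeR or by DESeq2. Over all genes tested 1.24% were called higher and 3.72% lower, 4.96% in either direction, so that 1 of 30 is a share near the background.

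The median log2 fold change of the 30 genes, *GMR>Rh-1G69D* over WT, was 0.11, beside 0.04 for all genes tested, and after correction for gene length it was 0.01 beside 0.04. Of the 30 values 19 were above 0 and 11 below. In 5 genes (*Rab1*, *Rab8*, *Rab18*, *Rab27* and *Rab30*) every *GMR>Rh-1G69D* library was above every WT library, and in 1 (*Rab32*) every one was below. Such separation was found in 13.6% of all genes tested in the higher direction and 14.6% in the lower direction. At an unadjusted p under 0.05, 1 Rab gene was higher and 1 lower, where 11.0% and 12.8% of all genes were (23.8% in either direction).

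Differences that were not called were bounded by their 95% intervals. Of the 29 Rab genes without a call, 19 had an interval inside a log2 fold change of -1 to 1, so that for these a doubling or a fall of the same size lay outside the interval. The remaining 10 had wider intervals, among them *Rab18* and *Rab19* as well as *Rab27*, *Rab9* and the *Rab9*-like copies. The standard error ran between 0.18 and 1.14. The tissue is a mixture and the comparison is of bulk RNA, so fewer cells of a type and less RNA per cell cannot be told apart.

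**Figure D2:**
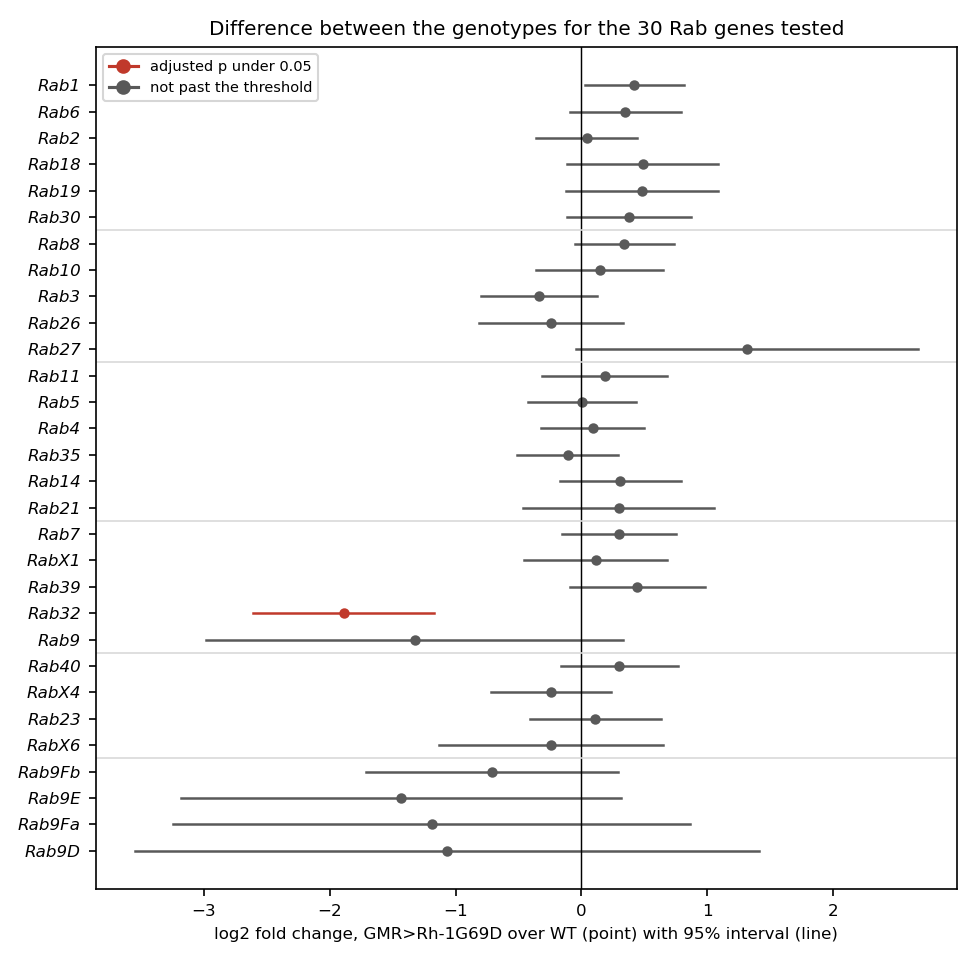
Log2 fold change of *GMR>Rh-1G69D* over WT (horizontal axis) for the 30 Rab genes tested, with points for the edgeR estimate and lines for its 95% interval, in blocks by transport step in the order of the level plot. *Rab32*, in red, is the 1 gene past the adjusted threshold, at -1.89. The 4 *Rab9*-like copies at the bottom have wide intervals that all include 0.

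*Rab32* RNA was 3.71-fold lower in *GMR>Rh-1G69D* nuclei. Rab32 acts in the biogenesis of lysosome-related organelles, which in the fly eye are the pigment granules, and mutants are known for altered eye colour. It was measured at 5.93, 8.59 and 10.5 CPM in *GMR>Rh-1G69D* libraries (156, 196 and 245 counts), against 39.9, 20.5 and 32.5 CPM in WT libraries (784, 677 and 951 counts). The highest *GMR>Rh-1G69D* library stood below the lowest WT library, WT replicate 2. *GMR>Rh-1G69D* nuclei averaged 8.35 ± 2.30 CPM and WT nuclei 31.0 ± 9.81 CPM (SD, n = 3 each). This gave a log2 fold change of -1.89, with a standard error of 0.33 and a 95% interval of -2.61 to -1.18 (adjusted p = 0.00701, edgeR with Benjamini-Hochberg adjustment).

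The *Rab32* call did not rest on 1 library or on 1 choice of processing. It was called in each of 16 alternatives, with a log2 fold change of -2.11 to -1.40 and an adjusted p of at most 0.0466. Without WT replicate 3, the library nearest to the *GMR>Rh-1G69D* group, the log2 fold change was -1.85. *Rab32* (FBgn0002567) spans 9177864 to 9186342 of arm 2R in dm6, read from the minus strand, and no other annotated gene shares its exonic sequence. *Rme-8*, which lies beside it, had a log2 fold change of 0.14 (adjusted p = 0.646, edgeR). The 5 called markers of cells behind the furrow moved in the same direction as *Rab32*, among them *sv*, a cone and pigment cell factor, at -2.85, *lz*, a factor for later-born retinal cells, at -2.01, and *gl*, the factor that binds the GMR element, at -1.67. Their part in the *Rab32* result was not tested.

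*didum* was lower, as the 1 called gene among 35 tested in the effector list, beside 3.72% of all genes called lower. It encodes myosin V, which moves pigment granules in fly photoreceptors and also works with Rab11 in the transport of Rhodopsin-1. It was at 66.0, 59.5 and 61.6 CPM in *GMR>Rh-1G69D* libraries, against 163, 170 and 118 CPM in WT libraries. The *GMR>Rh-1G69D* libraries lay close together and all below the lowest WT library, WT replicate 3. On the log2 scale *didum* differed by -1.27 (95% interval -1.70 to -0.84, standard error 0.20, adjusted p = 0.00412, edgeR), and *didum* was called in 16 of 16 alternatives.

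Other partners of these proteins were not called. *ca* (claret), the exchange factor of Rab32, was at 97.0, 88.0 and 78.1 CPM in *GMR>Rh-1G69D* libraries and 98.8, 102 and 81.9 CPM in WT libraries, so the genotypes overlapped. Its log2 fold change was -0.11 (adjusted p = 0.769, edgeR) and ran between -0.19 and 0.25 over the alternatives. *Rip11*, a Rab11 effector that works with myosin V, was at 0.03 (adjusted p = 0.947, edgeR).

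**Figure D3:**
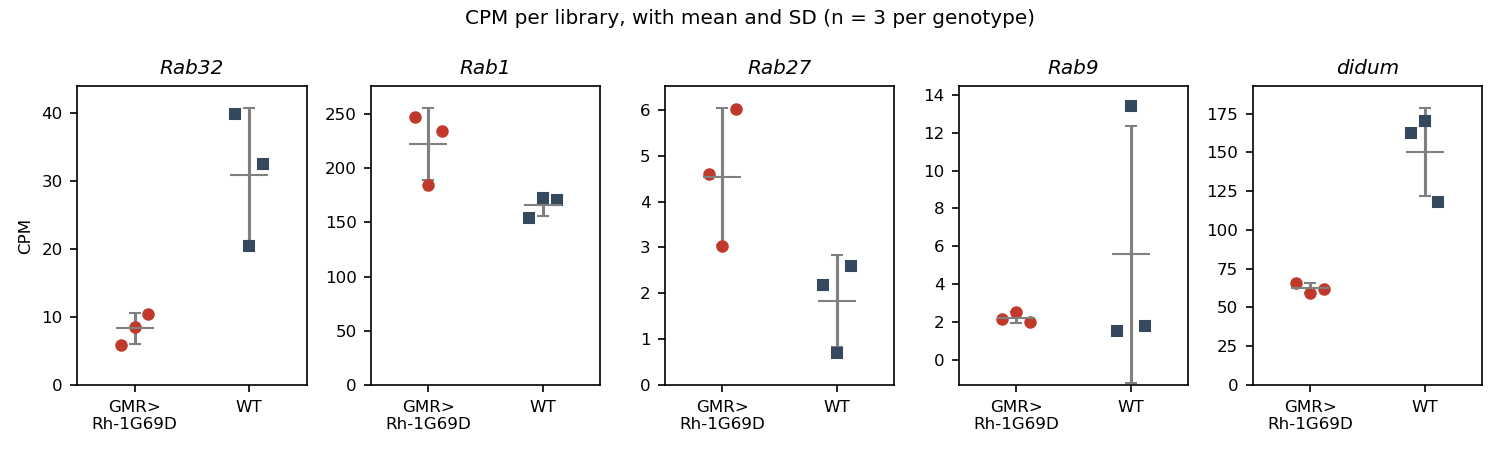
CPM of *Rab32*, *Rab1*, *Rab27*, *Rab9* and *didum* in each library (points), with the mean as a horizontal bar and the SD as a vertical bar (n = 3 per genotype), *GMR>Rh-1G69D* left of WT. The genotypes do not overlap for *Rab32*, *Rab1*, *Rab27* and *didum*, and *Rab9* has 1 WT library, replicate 2, at 13.4 CPM above the other 5.

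All 6 Rab genes of the ER to Golgi and Golgi group had a log2 fold change above 0, with a median of 0.40. None passed the adjusted threshold. After the gene length correction *Rab2* was at -0.16 and the other 5 between 0.19 and 0.25. *Rab1*, which brings ER-derived vesicles to the Golgi, was at 248, 184 and 234 CPM in *GMR>Rh-1G69D* libraries, against 154, 173 and 171 CPM in WT libraries. The genotypes did not overlap, although *GMR>Rh-1G69D* replicate 2 stood close to WT replicates 2 and 3. The log2 fold change was 0.42 with a standard error of 0.18 and a 95% interval of 0.025 to 0.82. Its unadjusted p was 0.0390 and its adjusted p 0.186 in edgeR, and the adjusted p ran between 0.104 and 0.470 over the alternatives. An antisense RNA overlaps an exon of *Rab1*, the strand setting of the counting was not given in the sources used here, and the part of that RNA in the *Rab1* value was not tested.

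*Rab6*, the Golgi Rab on the Rhodopsin-1 route, was at 167, 140 and 175 CPM in *GMR>Rh-1G69D* libraries and 120, 101 and 158 CPM in WT libraries. WT replicate 3 fell among the *GMR>Rh-1G69D* values, and the other WT libraries lay below them. The log2 fold change was 0.35 (95% interval -0.09 to 0.79, adjusted p = 0.319, edgeR).

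*Rab2* was at 106, 114 and 138 CPM in *GMR>Rh-1G69D* libraries and 115.03, 107 and 126 CPM in WT libraries, with a log2 fold change of 0.04 (95% interval -0.36 to 0.44). The genotypes overlapped across nearly their whole range. *Rab18*, linked in mammals to the ER and lipid droplets, was at 18.1, 20.2 and 22.9 CPM in *GMR>Rh-1G69D* libraries, against 13.2, 12.4 and 18.1 CPM in WT libraries, with *GMR>Rh-1G69D* replicate 1 just above WT replicate 3. *Rab18* (0.49), *Rab19* (0.48), a Golgi Rab in mammals, and *Rab30* (0.38), a Golgi Rab, were not called.

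The 6 genes together took 30.95%, 30.2% and 30.6% of the summed Rab FPKM in *GMR>Rh-1G69D* libraries, and 27.4%, 28.0% and 26.7% in WT libraries. Every *GMR>Rh-1G69D* library was above every WT library in this share, which is a description with no test. The share was taken without the gene length correction, which lowered the log2 fold changes of these genes. Among 18 tested genes of COPII coats and ER to Golgi carriers, 0 were called and 14 were above 0, with a median of 0.36. At an unadjusted p under 0.05, 4 were higher and 1 was lower in edgeR, beside 11.0% and 12.8% of all genes, and DESeq2 called 1 higher. The highest, *CHOp24*, a cargo receptor of the p24 family, was at 114, 65.8 and 67.5 CPM in *GMR>Rh-1G69D* libraries and 28.6, 41.9 and 53.2 CPM in WT libraries (log2 fold change 1.00, adjusted p = 0.0629, edgeR). The lowest, *Sec16*, a scaffold of ER exit sites, had a log2 fold change of -0.47 (adjusted p = 0.169, edgeR), which was 0.012 with the gene length correction and replicate block together. Without WT replicate 3, 6 of these genes were called higher and 1 lower, beside 10.7% and 9.82% of all genes.

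Rab genes of exocytosis split by direction, and none of the 5 was called. *Rab8*, which carries vesicles between the Golgi and the surface, was at 161, 125 and 147 CPM in *GMR>Rh-1G69D* libraries, against 116, 104 and 122 CPM in WT libraries. The genotypes separated narrowly, with *GMR>Rh-1G69D* replicate 2 just above WT replicate 3, and the log2 fold change was 0.34 (95% interval -0.05 to 0.73, adjusted p = 0.270, edgeR). *Rab10*, which serves polarized secretion, was at 0.14. *Rab3*, the Rab of synaptic vesicles, was at 132, 132 and 170 CPM in *GMR>Rh-1G69D* libraries, against 237, 160 and 153 CPM in WT libraries, with a log2 fold change of -0.34 (95% interval -0.80 to 0.12), and of -0.11 without WT replicate 1. *Rab26*, a vesicle Rab of neurons and secretory cells, was at -0.24, and an antisense RNA shares exonic sequence with it.

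Genes that act with Rab3 lay near 0 or below it, and none was called in the main test. *Rab3-GAP*, a subunit of the complex that ends its active state, was at 0.0069 and *Rph* (rabphilin), which binds Rab3, at 0.04. *Rab3-GEF*, its exchange factor, had a log2 fold change of -0.50 (unadjusted p = 0.0284, adjusted p = 0.162, edgeR). *Rim*, the active zone protein that binds Rab3, was at 168, 208 and 142 CPM in *GMR>Rh-1G69D* libraries, against 386, 265 and 247 CPM in WT libraries. No *Rim* value of the *GMR>Rh-1G69D* group reached the WT range, and its log2 fold change was -0.79 (adjusted p = 0.0629, edgeR). With the gene length correction and replicate block together, *Rim* was at -0.17 and *Rab3-GEF* at -0.068. *Rim* was called in 4 of 16 alternatives.

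*Rab27*, which in mammals releases lysosome-related organelles, was the Rab gene with the highest log2 fold change, at low counts. It was at 4.601, 3.02 and 6.01 CPM in *GMR>Rh-1G69D* libraries (121, 69 and 140 counts), against 2.19, 0.70 and 2.597 CPM in WT libraries (43, 23 and 76 counts). The genotypes did not overlap, and WT replicate 2 was the lowest by far. It differed by 1.32 on the log2 scale, with a standard error of 0.63 and a 95% interval of -0.04 to 2.67 (adjusted p = 0.223, edgeR). Without WT replicate 2 it was 0.93.

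Rab genes of early and recycling endosomes lay near 0, and none of the 6 was called. *Rab5* was at 252, 205 and 304 CPM in *GMR>Rh-1G69D* libraries and 256, 222 and 279 CPM in WT libraries. The *GMR>Rh-1G69D* values spanned the whole WT range, and the difference was 0.01 on the log2 scale (95% interval -0.42 to 0.44, standard error 0.20, adjusted p = 0.986, edgeR). *Rab11* was at 235, 177 and 213 CPM in *GMR>Rh-1G69D* libraries and 146, 152 and 251 CPM in WT libraries. WT replicate 3 was the highest of all libraries for *Rab11* and the other WT libraries were the lowest, which left a log2 fold change of 0.19 (95% interval -0.31 to 0.68, adjusted p = 0.651, edgeR).

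The other genes of this step had values between -0.11 and 0.31. They were *Rab14* (0.31), which acts between endosomes and the Golgi, *Rab21* (0.30), an early endosome Rab, *Rab4* (0.09), which recycles cargo to the surface, and *Rab35* (-0.11), which serves recycling and actin at the plasma membrane. The 6 genes took 30.6%, 29.3% and 29.8% of the summed Rab FPKM in *GMR>Rh-1G69D* libraries and 30.1%, 30.1% and 32.9% in WT libraries, which overlap.

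Of the 5 genes of late endosomes and lysosomes, *Rab32* alone was called. *Rab7*, which drives fusion with lysosomes, was at 105, 105 and 145 CPM in *GMR>Rh-1G69D* libraries and 100, 78.4 and 111 CPM in WT libraries. Only WT replicate 3 entered the range of the *GMR>Rh-1G69D* libraries, and the log2 fold change was 0.30 (95% interval -0.16 to 0.75). *Rab39*, a lysosomal Rab, was at 0.45 and *RabX1*, an endosomal Rab of the fly, at 0.11. The 6 subunits of the HOPS tether that works with Rab7 had values between -0.15 (*Vps11*) and 0.30 (*Vps39*), and none was called.

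*Rab9*, which returns cargo from late endosomes to the Golgi, had 57, 58 and 46 counts in *GMR>Rh-1G69D* libraries, against 30, 443 and 52 counts in WT libraries. In CPM these were 2.17, 2.54 and 1.97 in *GMR>Rh-1G69D* libraries, against 1.53, 13.4 and 1.78 in WT libraries, so that WT replicate 2 alone was high. The log2 fold change was -1.33 (95% interval -2.98 to 0.33, adjusted p = 0.312, edgeR), and it was 0.44 without WT replicate 2. In the same library *Jon65Aiii*, a serine protease of the gut, was at 188 CPM and at most 0.69 CPM elsewhere. *Jon65Aiii* was chosen after its values were seen, and a link between it and *Rab9* was not tested.

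The 5 *Rab9*-like copies, which lie between 10589089 and 10952486 on chromosome X in dm6, were weak and variable. *Rab9Fb* was at 4.71, 3.77 and 3.82 CPM in *GMR>Rh-1G69D* libraries and 10.3, 5.35 and 4.58 CPM in WT libraries (log2 fold change -0.71). *Rab9E* was at 0.46, 3.29 and 0.90 CPM in *GMR>Rh-1G69D* libraries, against 7.99, 2.69 and 1.91 CPM in WT libraries (-1.43), and *Rab9Fa* at 3.23, 0.57 and 0.30 CPM in *GMR>Rh-1G69D* libraries, against 6.21, 2.54 and 0.72 CPM in WT libraries (-1.19). The genotypes overlapped in each of these genes, and WT replicate 1 held the highest value.

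*Rab9D* had a log2 fold change of -1.07, and *Rab9Db* was not tested, with at most 4 counts in any library. All 4 tested copies were below 0 and none was called, and their assignment is uncertain because similar copies may share reads. *Rab9E* lies inside *X11Lbeta* on the opposite strand. *X11Lbeta* was at 160, 209 and 193 CPM in *GMR>Rh-1G69D* libraries and 1103, 566 and 449 CPM in WT libraries (log2 fold change -1.91, adjusted p = 0.00421, edgeR). *Rab9Fa* and *Rab9Fb* lie inside *Myo10A*, also on the opposite strand, whose log2 fold change was -0.49. Reads of a host gene and of the gene inside it cannot be told apart where the counting did not use strand, and the part of the hosts in these values was not tested.

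The remaining Rab genes serve other or little known steps, and none was called. *Rab40*, which in mammals joins a ubiquitin ligase, was at 0.30, and *Rab23*, which limits the number of wing hairs in the fly, at 0.11. *RabX4* and *RabX6* were both at -0.24, and each shares exonic sequence with another gene. *RabX2* and *RabX5* had at most 2 counts in any library and were not tested.

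Among 17 tested genes of Rab GTPase-activating proteins (TBC genes and *Rab3-GAP*), which end the active state of Rabs, 2 were lower and 0 higher, beside 3.72% and 1.24% of all genes, with a median of -0.05. *plx* (pollux) was at 76.8, 63.8 and 70.7 CPM in *GMR>Rh-1G69D* libraries, against 168, 148 and 116 CPM in WT libraries. All its *GMR>Rh-1G69D* values were below the lowest WT value, and they differed by -1.03 on the log2 scale (SE 0.20, adjusted p = 0.0114, edgeR). *CG42795* was at 25.2, 47.1 and 24.9 CPM in *GMR>Rh-1G69D* libraries, against 87.5, 76.1 and 54.0 CPM in WT libraries, again with no overlap and a difference of -1.16 on the log2 scale (SE 0.29, adjusted p = 0.0372, edgeR). Over 16 alternatives *plx* was called in 9 and *CG42795* in 8. The call of *plx* was lost without WT replicate 1 or any 1 *GMR>Rh-1G69D* library, with an edgeR adjusted p of 0.0521 to 0.0719. That of *CG42795* was lost without WT replicate 1 or 2 or *GMR>Rh-1G69D* replicate 1 or 3 (edgeR adjusted p of 0.119 to 0.181). After the gene length correction both were at -0.64. The highest of the list was *CG12241*, at 0.45.

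The 22 exchange factor genes held 0 calls in edgeR, beside 4.96% of all genes, with a median of 0.06. At an unadjusted p under 0.05 in edgeR, 1 was higher and 1 lower, beside 11.0% and 12.8% of all genes. DESeq2 called 0 of the 22. The highest was *Trs33*, a subunit of the TRAPP complexes that act on Rab1 and Rab11, at 1.24 (adjusted p = 0.173, edgeR), with 4.71, 5.26 and 5.45 CPM in *GMR>Rh-1G69D* libraries against 1.48, 2.00 and 3.04 CPM in WT libraries. The lowest was *Rab3-GEF*.

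Of 35 effector and tether genes 1, *didum*, was lower, beside 3.72% of all genes, with a median of -0.06. The highest, *Sec15*, an exocyst subunit that binds Rab11, was at 40.6, 34.0 and 39.4 CPM in *GMR>Rh-1G69D* libraries and 18.8, 23.1 and 33.8 CPM in WT libraries (log2 fold change 0.59, adjusted p = 0.193, edgeR). The genotypes of *Sec15* separated by a narrow margin between *GMR>Rh-1G69D* replicate 2 and WT replicate 3.

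The 4 carrier and prenylation genes held 0 calls in edgeR or DESeq2, with a median of 0.33. At an unadjusted p under 0.05 in edgeR they held 0, beside 23.8% of all genes in either direction. *Gdi*, which withdraws inactive Rabs from membranes, was the lowest at 0.19, with 632, 474 and 508 CPM in *GMR>Rh-1G69D* libraries and 357, 459 and 595 CPM in WT libraries, which overlap. The highest was *betaggt-II*, a subunit of the transferase that adds the lipid, at 0.65.

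**Figure D4:**
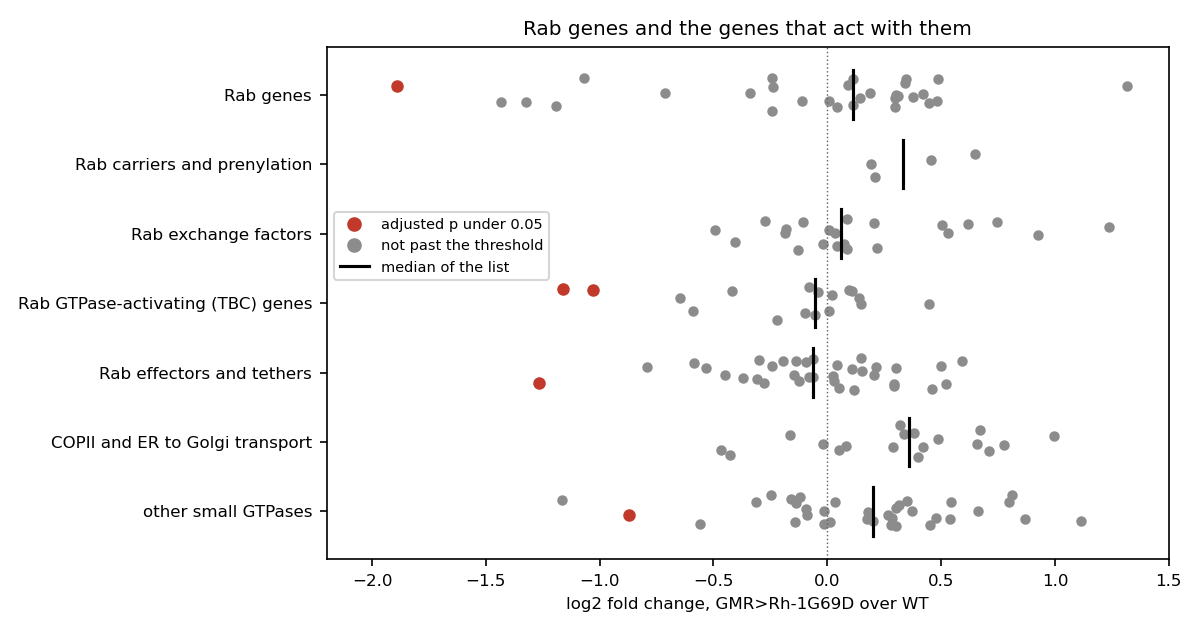
Log2 fold change of *GMR>Rh-1G69D* over WT (horizontal axis) for each tested gene (points) of the Rab genes, the lists of genes that act with them and other small GTPases, with the median of each list as a black bar. Red points are genes with an adjusted p under 0.05, all below 0. The median of the Rab genes is 0.11 and that of the COPII and ER to Golgi list 0.36.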

How the data were processed

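Nuclear RNA from 3 *GMR>Rh-1G69D* and 3 WT samples was analysed as the authors deposited it. The authors aligned reads to dm6 with STAR (2.6.1d) and counted them per gene with featureCounts (Subread 1.6.3), per the labels. The deposited raw counts are not normalized. The deposited FPKM values divide these counts by gene length and library total. The authors' normalized counts were not used here. The annotation release and the strand setting were not given in the sources used here. The lengths implied by FPKM equalled the summed exons of the reference annotation for 30 of the 33 Rab genes. The largest difference among the 33 was 4 bp.

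The genotypes were compared by edgeR 4.0.16 in R 4.3.3 (filterByExpr, TMM, quasi-likelihood F test), with Benjamini-Hochberg adjustment over 11818 genes. Libraries held 21773452 to 30884519 counts. The p-values measure the spread between pools of larvae, and 3 against 3 samples cannot give an exact permutation p below 0.1. Scripts were tested on simulated data.

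Members and gene lists (Rab regulators, effectors, COPII, other small GTPases and cell type markers) were chosen with earlier results of these data known. Values per sample are given for Rab genes past the adjusted or unadjusted threshold, those with no overlap and a log2 fold change of 0.5 or more in size, the 5 with the highest mean FPKM, *Rab6* and *Rab11*, and for called or extreme genes of the lists. Other genes were named after their values were seen. Alternatives were DESeq2 1.42.0, RLE normalization, other filters, a replicate block, a gene length correction (lowess, span 0.5), limma 3.58.1 on log2 FPKM with pseudocounts of 1 and 0.1, robust dispersion and leaving out each library. Figures were drawn with matplotlib 3.10.9.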

Additional observations from a re-analysis of the deposited data

How the results depend on the processing

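*Rab32* was called lower in all 16 alternatives and no other Rab gene was called in any, while the number of Rab genes tested was 33 with no filter, 28 with at least 10 counts in every library and 30 otherwise. Leaving out each library gave *Rab32* log2 fold changes of -2.11 to -1.66. Of 478 values of Rab genes under the alternatives, 24 changed sign, in 9 genes, none of them called, and 21 genes kept their sign. After the gene length correction these were *Rab2* (-0.16), *Rab4* (-0.17), *Rab23* (-0.0064) and *RabX1* (-0.068), and with the replicate block added -0.16, -0.17, -0.026 and -0.064. *Rab5* was at -0.022 with DESeq2, -0.027 with RLE, -0.016 with the filter at 10 counts and -0.0054 with the replicate block. With a library left out, values ran -0.061 to 0.13 for *Rab2*, -0.13 to 0.14 for *Rab5*, -1.76 to 0.44 for *Rab9*, -0.038 to 0.45 for *Rab10*, -0.042 to 0.29 for *Rab23*, -0.22 to 0.0039 for *Rab35*, -0.093 to 0.41 for *RabX1* and -0.54 to 0.11 for *RabX6*.

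Counts over all genes moved more. Higher calls numbered 146, against 507 with DESeq2 and 253 with the replicate block, and 54 to 1305 with a library left out. The 1305 came without WT replicate 3, and leaving out any other library gave at most 68. Lower calls numbered 440, against 957 with DESeq2, 233 and 210 with limma at pseudocounts of 1 and 0.1, and 127 to 1199 with a library left out. The median of all genes was 0.10 and 0.13 with limma, beside 0.04. Lower TBC genes numbered 1 after the length correction, 0 with the block added and 0 with limma at either pseudocount. Lower effector genes numbered 2 with DESeq2, no filter or the filter at 10 counts. Higher COPII genes numbered 1 with DESeq2, no filter, the filter at 10 counts, the length correction or robust dispersion. Lower calls among other small GTPases numbered 2 with DESeq2 and 0 with limma. With a library left out, higher and lower calls ran 0 to 6 and 0 to 1 for COPII genes, 0 to 1 and 0 to 1 for exchange factors, 0 to 1 and 1 to 4 for effectors, and 0 to 4 and 0 to 2 for other small GTPases. Higher calls ran 0 to 1 for carriers, and lower calls 0 to 4 for TBC genes, and each of these upper ends came without WT replicate 3. The cause was not tested.

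The main test did not pair the samples by replicate number. Deviations of same-numbered samples correlated at -0.0025, 0.07 and 0.16, and those of differently numbered samples at -0.12 to 0.04. The values for replicates 2 and 3 were thus the highest, though low, and whether the numbers mark pairs was not tested. With the replicate block *Rab32* was at -1.87 (adjusted p = 0.00924, edgeR). Genes at a few counts, such as *Rab9D*, limit the precision, and their intervals cover only the spread between these samples.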

Other observations

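Of 35 tested genes of small GTPases outside the Rab family, 1 was lower and 0 higher in *GMR>Rh-1G69D* nuclei, beside 3.72% and 1.24% of all genes, with a median log2 fold change of 0.20. The called gene, *CG8500*, was at 34.1, 30.1 and 35.7 CPM in *GMR>Rh-1G69D* libraries, against 68.97, 55.6 and 58.5 CPM in WT libraries. The genotypes did not overlap, and differed by -0.87 on the log2 scale (SE 0.21, adjusted p = 0.0320, edgeR). It was called in 9 of 16 alternatives, and leaving out any 1 library other than WT replicate 3 ended the call (edgeR adjusted p of 0.0742 to 0.125). The lowest value of the list was that of *CG8641*, at 6.65, 10.2 and 13.1 CPM in *GMR>Rh-1G69D* libraries, against 33.2, 15.7 and 18.2 CPM in WT libraries (log2 fold change -1.16, adjusted p = 0.0862, edgeR). The highest, *CG8519*, stood at 1.12 and at most 1.45 CPM in any library.

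WT replicate 3 held the highest WT value for 17 of the 30 tested Rab genes, WT replicate 1 for 8 and WT replicate 2 for 5. Without WT replicate 3 the median log2 fold change of the Rab genes was 0.26, beside 0.05 for all genes, and 1 Rab gene was called while 10.7% of all genes were called higher and 9.82% lower.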
